A study of Mus musculus with 26 samples.

Results

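The 8 genes described here encode the intracellular lipases of the adipocyte and the proteins that hold them in check or switch them on: Pnpla2, Lipe and Mgll, which act in sequence on stored triglyceride, Abhd6 and Pnpla3, the coactivator Abhd5 and the inhibitors G0s2 and Hilpda. They were chosen by name, as members of this pathway, from the 50686 genes of the deposited count table. All 8 passed the filter on low counts, which left 17286 genes for testing. RNA was sequenced from supraclavicular brown adipose tissue of 26 male C57BL/6J mice aged 12 to 16 weeks. FAKO mice carried the conditional (floxed) allele of Afadin (gene symbol Afdn, formerly Mllt4) together with Cre under the Adiponectin promoter, and the control mice were their littermates. All mice were kept singly at thermoneutrality (30 °C in the labels, 29 °C in the study's methods) for about 2 weeks. Of these, 7 control and 7 FAKO mice stayed there, and 5 control and 7 FAKO mice were moved to 5 °C for 6 h. Since Adiponectin-Cre is active in all fat depots, the deletion was not limited to brown fat, and the tissue is a mixture of cell types in which a loss of adipocytes and less RNA per adipocyte cannot be told apart.

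Lipolysis starts when noradrenaline raises cAMP in the adipocyte. Adipose triglyceride lipase, encoded by Pnpla2, removes the first fatty acid from triglyceride and needs ABHD5 (CGI-58) for full activity. Hormone-sensitive lipase, HSL, encoded by Lipe, then acts on the diglyceride, and monoacylglycerol lipase, encoded by Mgll, on the monoglyceride. Protein kinase A phosphorylates HSL and the droplet coat protein perilipin 1, which then gives up ABHD5, so that the rate of lipolysis is set in large part after transcription. In brown fat the fatty acids released both fuel and activate UCP1.

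Libraries held between 12705969 and 25732258 counted reads. With cold, the log2 level of Ucp1 rose by 4.02 in the controls and by 4.34 in the mice labelled FAKO. This matches the label of the temperature. Of 8 listed brown adipocyte markers, Ucp1 among them, 4 were higher after cold in control mice. Another 2 were lower, Adipoq (log2 change -0.77) and Prdm16 (-0.66), and 2 did not pass the threshold. Among all tested genes 31.6% were higher and 33.4% lower. Afdn, the targeted gene, was measured at 151 to 214 CPM (counts scaled by library size and TMM factors) in control mice and at 154 to 231 CPM in mice labelled FAKO at thermoneutrality, and these ranges overlapped (log2 difference -0.01, FDR = 0.992). After cold it was 67.9 to 79.2 CPM in control mice and 53.3 to 65.3 CPM in mice labelled FAKO, ranges that did not overlap, with a log2 difference of -0.33 that did not pass the threshold (FDR = 0.116). Because the gene was not lower at thermoneutrality, the genotype is written below as labelled. These are RNA counts over the whole gene. At the protein level, the study reports a reduced rise of Afadin with cold in brown fat of FAKO mice. Summed skeletal muscle markers varied more than any other list, from 1.20 to 7125 CPM between libraries.

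The promoters of the 2 genes with the largest response to cold are shown first, since Pnpla3 fell furthest and Abhd5 rose furthest among the 8. Each window runs from 250 bases before to 50 bases after the transcription start in RefSeq (GRCm38.p6, plus strand for both genes), at chr15:84167566-84167865 for Pnpla3 and chr9:122351366-122351665 for Abhd5. Capitals mark the cAMP response element, the motif bound by CREB, as its full palindrome TGACGTCA in Pnpla3 and as its core TGACG in Abhd5.
Pnpla3: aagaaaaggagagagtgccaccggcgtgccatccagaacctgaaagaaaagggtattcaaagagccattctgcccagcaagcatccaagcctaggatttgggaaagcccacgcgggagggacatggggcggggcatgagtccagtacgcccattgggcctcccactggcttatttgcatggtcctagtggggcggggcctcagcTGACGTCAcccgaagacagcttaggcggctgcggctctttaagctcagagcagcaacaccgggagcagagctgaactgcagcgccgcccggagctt
Abhd5: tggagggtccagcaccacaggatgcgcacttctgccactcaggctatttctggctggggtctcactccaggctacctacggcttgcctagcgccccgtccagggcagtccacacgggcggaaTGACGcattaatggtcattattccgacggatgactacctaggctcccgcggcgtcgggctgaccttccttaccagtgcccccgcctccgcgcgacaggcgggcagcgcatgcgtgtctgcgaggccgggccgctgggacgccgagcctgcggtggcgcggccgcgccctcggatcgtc
All 8 genes matched a RefSeq window, 12 windows in all. Both strands were searched. The full palindrome, which contains the core on each strand, was present in 1.79% of all 32851 RefSeq windows of this length and among the lipase genes in Pnpla3, where it lay 46 to 39 bases before the start. The core was present in 20.8% of all windows and in 6 of the 12, those of Pnpla3, Mgll, Abhd5, G0s2 and Hilpda. In Abhd5 it lay 128 to 124 bases before the start. The 2 Hilpda windows overlap and share a core site, which was counted in both. The E-box CACGTG was found for Lipe and Mgll (7.15% of all windows), as was the forkhead motif GTAAACA (3.65%), and CCAAT for Pnpla3 and Abhd6 (37.4%). Windows of none of the 8 held TCACNCCAC, the direct-repeat PPAR element or TATAAA, which occurred in 1.24%, 0.0396% and 13.6% of all windows. These are matches of letters in a window and not measured binding.

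Levels were compared between genes per kilobase of exon. In control mice at thermoneutrality G0s2 (448 CPM per kb) and Pnpla2 (438 CPM per kb) stood first by mean, and their libraries overlapped. The lowest G0s2 library, at 187 CPM per kb, lay within the range of Lipe (181 to 233 CPM per kb). Lipe followed at 205 CPM per kb and Pnpla3 at 172 CPM per kb, again overlapping, and then Mgll at 67.7 CPM per kb, apart from its neighbours on both sides. Abhd5 (10.3 CPM per kb), Hilpda (9.05 CPM per kb) and Abhd6 (7.26 CPM per kb) closed the order without separating from each other. With the longest transcript as the length, Pnpla2 (504 CPM per kb) stood ahead of G0s2 (448 CPM per kb). On that length the means of Lipe and Pnpla3 were 324 and 202 CPM per kb. Those of Abhd5, Hilpda and Abhd6 were 19.4, 10.2 and 7.71 CPM per kb. Overlap between neighbours was read on the union of exons only, and depends on that choice of length.

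After 6 h of cold the order in control mice was Pnpla2 at 347, G0s2 at 269, Lipe at 96.7, Mgll at 79.8, Abhd5 at 40.6, Pnpla3 at 25.6, Abhd6 at 8.71 and Hilpda at 7.54 CPM per kb. The means of Lipe and Mgll on the longest transcript were 153 and 102 CPM per kb. On the union of exons Lipe overlapped with Mgll, and Abhd6 with Hilpda, while all other neighbours were apart. Abhd5 thus passed Pnpla3, which moved from place 155 to place 1265 among 17240 genes ranked by level per kilobase, whereas Abhd5 moved from 2728 to 784. In mice labelled FAKO the order was the same for the first 6 places after cold, but the libraries of Pnpla2 and G0s2 and those of Abhd5 and Pnpla3 overlapped there, and Hilpda stood before Abhd6, also with overlap. At thermoneutrality Pnpla2 (420 CPM per kb) and G0s2 (389 CPM per kb) led there too by mean, with overlap. The lowest G0s2 library (180 CPM per kb) lay within the range of Pnpla3 (132 to 241 CPM per kb).

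**Figure D1:**
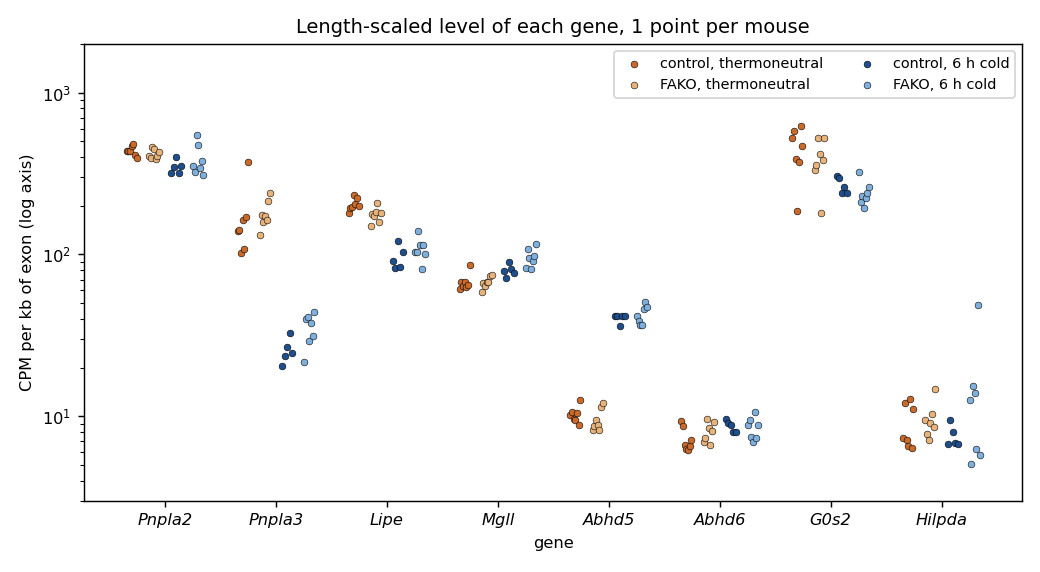
Normalised counts (CPM) per kilobase of exon (log axis) for the 8 genes, 1 point per mouse, coloured by group (7 control and 7 FAKO-labelled mice at thermoneutrality, 5 control and 7 FAKO-labelled mice after 6 h of cold). Pnpla2 and G0s2 have the highest means in every group, Pnpla3 drops and Abhd5 climbs with cold, and Abhd6 and Hilpda stay near the bottom. The lowest thermoneutral G0s2 points lie among those of Lipe and Pnpla3.

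Cold exposure of control mice addressed how the transcripts of the lipolytic machinery respond to acute thermogenic demand. Abhd5 rose, and Pnpla3, Lipe, G0s2 and Pnpla2 fell. Mgll and Abhd6 rose past the threshold in the main fit but not under several alternatives, and Hilpda did not pass it. That made 7 of 8 past FDR 0.05 (3 higher, 4 lower), where 65.0% of all tested genes passed (31.6% higher, 33.4% lower), so that the number of responding genes was near the background. The median log2 change of the 8 was -0.30, against -0.01 over all tested genes. In mice labelled FAKO 5 of 8 passed (2 higher, 3 lower), with 68.6% of all tested genes (33.7% higher, 34.9% lower), and the median was -0.01 against -0.03 over all genes. The libraries of cold and thermoneutral mice did not overlap for 3 of the genes in control mice (46.4% of all genes) and for 4 in mice labelled FAKO (40.4%).

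Pnpla2 (ENSMUSG00000025509.15, chr7:141455198-141460743, plus strand, in mm10/GRCm38 as for all genes here), the triglyceride lipase, was measured in control mice at 1189 CPM at the lowest, 1323 at the median and 1447 at the highest at thermoneutrality. After cold the 5 control mice had 963, 1050, 1206, 963 and 1059 CPM. The ranges met only through the mouse at 1206 CPM, and the other 4 lay below every thermoneutral mouse. The log2 change was -0.34 ± 0.11 (SE, FDR = 0.00786). Mice labelled FAKO had 1177, 1229 and 1401 CPM (lowest, median, highest) at thermoneutrality and 937, 1068 and 1653 CPM after cold. Here 5 of the 7 cold mice lay below and 2 above every thermoneutral mouse, and the log2 change of -0.11 ± 0.10 did not pass the threshold (FDR = 0.336, 95% interval -0.31 to 0.09). The high values came from mice 24 (1653 CPM) and 25 (1443 CPM), whose summed skeletal muscle markers were 3586 and 7125 CPM, the highest of that group, and whose TMM factors of 0.769 and 0.759 were the lowest of all libraries. The part of either in the result was not tested. In control mice the highest summed muscle markers of each group were those of thermoneutral mouse 7 (5280 CPM) and cold mouse 16 (4369 CPM). Those mice had the lowest Pnpla2 of their groups, at 1189 and 963 CPM. Without mice 24 and 25 the log2 change in mice labelled FAKO was -0.32 (FDR = 0.000154), and without mouse 24 alone it was -0.21 (FDR = 0.0220). Upper-quartile factors gave -0.27 (FDR = 0.0132), with the median of all genes at -0.18, and library size alone gave -0.45 (FDR = 3.40e-06), with that median at -0.34.

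Lipe (ENSMUSG00000003123.15, chr7:25379527-25398710, minus strand), which encodes HSL, was lower in every cold mouse than in any thermoneutral mouse of the same genotype label. Control mice at thermoneutrality had 1066, 1168 and 1372 CPM (lowest, median, highest), and the 5 cold control mice had 540, 486, 716, 493 and 610 CPM. No cold mouse reached the thermoneutral range, and the log2 change was -1.08 ± 0.11 (SE, FDR = 2.32e-09), a 2.12-fold lower level. The mice labelled FAKO had 885, 1051 and 1221 CPM at thermoneutrality and 480, 613 and 816 CPM after cold, again without overlap, with a log2 change of -0.70 ± 0.10 (FDR = 4.52e-07). An antisense transcript, 4732471J01Rik, shares 918 bp of exon with Lipe and reached at most 349 counts in a library, where Lipe had at least 6972. Whether strand was used in counting is not given in the sources used here, so reads of overlapping antisense genes may be mixed.

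Mgll (ENSMUSG00000033174.17, chr6:88724412-88828360, plus strand), which encodes the lipase of the last step, moved the other way. The thermoneutral control mice lay between 312 and 439 CPM with a median of 327, and the cold control mice had 401, 365, 457, 414 and 389 CPM. All 5 stood above the thermoneutral mean of 344 CPM, although the ranges overlapped, and the log2 change was 0.24 ± 0.09 (FDR = 0.0221). This call was lost without control mouse 18 (0.19, FDR = 0.0803) and under library size alone (0.10, FDR = 0.591), which puts the median of all genes at -0.14. Upper-quartile factors (0.13, FDR = 0.214) and no filter (0.23, FDR = 0.0590) lost it as well. So did at least 10 counts in every library (FDR = 0.0619) and only the groups compared (FDR = 0.0730). Under the FAKO label Mgll was 298, 342 and 379 CPM (lowest, median, highest) at thermoneutrality and 411, 479 and 585 CPM after cold, without overlap (log2 change 0.50 ± 0.08, FDR = 5.21e-06). Under library size alone that change was 0.20 (FDR = 0.198), where the median of all genes was -0.34.

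Pnpla3 (ENSMUSG00000041653.4, chr15:84167837-84187236, plus strand), a patatin-like relative of Pnpla2 known for a human variant linked to fatty liver, fell most of the 8. In control mice it was measured at 158, 220 and 580 CPM (lowest, median, highest) at thermoneutrality and at 31.8, 36.3, 41.5, 50.7 and 38.1 CPM after cold. The groups stood well apart, with a log2 change of -2.74 ± 0.26 (FDR = 7.99e-10), a 6.69-fold lower level. With the FAKO label it went from 204, 269 and 374 CPM to 33.3, 58.6 and 68.3 CPM, also without overlap, and the log2 change was -2.36 ± 0.23 (FDR = 6.96e-10). Thermoneutral control mouse 7 carried the value of 580 CPM and also the highest summed skeletal muscle markers of its group (5280 CPM). The part of this in the level was not tested, and without that mouse the change in control mice was -2.45 (FDR = 1.14e-11). Cold control mouse 16, with the highest summed muscle markers of its group (4369 CPM), had the lowest Pnpla3 there (31.8 CPM).

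Abhd6 (ENSMUSG00000025277.13, chr14:8002902-8056763, plus strand) encodes a hydrolase of monoacylglycerol and was the least expressed of the 8 per kilobase at thermoneutrality. It ranged from 14.6 to 22.0 CPM in control mice at thermoneutrality and was 22.6, 21.5, 20.9, 19.0 and 19.0 CPM after cold in the 5 control mice. The ranges overlapped, and the log2 change of 0.26 ± 0.11 passed narrowly (FDR = 0.0477). Mice labelled FAKO had 15.7 to 22.6 CPM at thermoneutrality and 16.4 to 25.0 CPM after cold (log2 change 0.08 ± 0.11, FDR = 0.504, 95% interval -0.14 to 0.30), a value that turned to -0.21 under library size alone and -0.07 with upper-quartile factors. The call in control mice was lost when any of 8 of the 12 mice was left out in turn.

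Abhd5 (ENSMUSG00000032540.16, chr9:122351608-122381524, plus strand), the coactivator of Pnpla2, showed the largest rise. Control mice at thermoneutrality had 52.4, 60.6 and 75.4 CPM (lowest, median, highest), and after cold they had 248, 248, 216, 247 and 250 CPM. The lowest cold mouse stood far above the highest thermoneutral mouse. The log2 change was 1.98 ± 0.10 (FDR = 5.62e-15), a 3.95-fold higher level. Abhd5 in mice labelled FAKO went from 49.0, 52.4 and 71.9 CPM to 218, 247 and 303 CPM, with no overlap and a log2 change of 2.15 ± 0.10 (FDR = 3.15e-16). An antisense transcript, A730085K08Rik, shares 950 bp of exon with Abhd5 and reached at most 49 counts in a library, where Abhd5 had at least 810.

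G0s2 (ENSMUSG00000009633.3, chr1:193272161-193273217, minus strand), which encodes the inhibitor that binds adipose triglyceride lipase, fell on average in both genotypes but spread widely at thermoneutrality. Control mice there had 163, 410 and 540 CPM (lowest, median, highest), and the cold control mice 265, 260, 210, 227 and 209 CPM. All cold mice lay below the thermoneutral mean of 390 CPM, but the groups overlapped because thermoneutral mouse 4 had the lowest value of all 12. The log2 change was -0.74 ± 0.23 (FDR = 0.00595). FAKO-labelled mice had 157, 335 and 459 CPM at thermoneutrality and 170, 200 and 281 CPM after cold, and the log2 change was -0.70 ± 0.20 (FDR = 0.00393).

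Hilpda (ENSMUSG00000043421.8, chr6:29272488-29275446, plus strand), the hypoxia-inducible inhibitor of the same lipase, was low and variable. It ranged from 6.98 to 14.1 CPM in control mice at thermoneutrality, and from 7.37 to 10.5 CPM after cold. The log2 change of -0.26 ± 0.39 did not pass (FDR = 0.575, 95% interval -1.07 to 0.55). FAKO-labelled mice had 7.86, 9.97 and 16.2 CPM at thermoneutrality and 5.56, 13.8 and 53.6 CPM after cold. The top value was that of mouse 27, whose summed neutrophil markers of 44.2 CPM were also the highest of all libraries (Ly6g was at 0 in both thermoneutral groups), and the part of this in the value was not tested. Cold mouse 26, with neutrophil markers of 14.5 CPM, had 6.89 CPM of Hilpda. The log2 change in mice labelled FAKO was 0.68 ± 0.35 (FDR = 0.0883), and without mouse 27 it was 0.02 (FDR = 0.933). It passed the threshold when mouse 23, 26 or 28 was left out instead, at 0.82 in each case (FDR = 0.0318, 0.0405 and 0.0364).

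**Figure D2:**
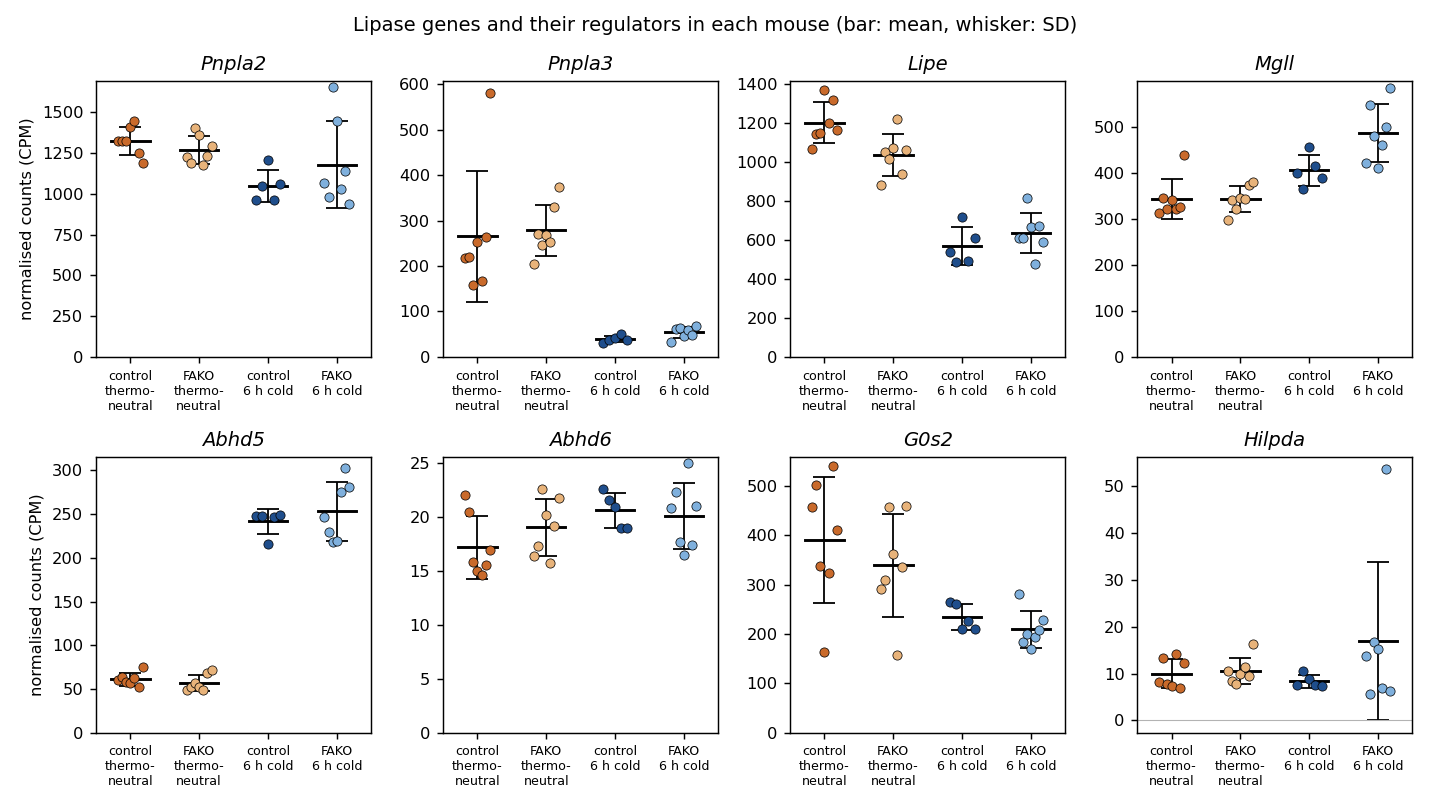
Normalised counts (CPM) in each mouse for the 8 genes (1 panel per gene, linear axes that include 0), by group. Bars give the mean and whiskers the SD (n = 7, 7, 5 and 7). Lipe and Pnpla3 separate by temperature downward and Abhd5 upward in both genotypes, while a few mice set the spread of Pnpla3, G0s2 and Hilpda.

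The genotype comparisons asked whether the FAKO label went with other levels of the lipase genes. None of the 8 passed the edgeR threshold at either temperature, where 0.0810% of all tested genes passed at thermoneutrality and 0.139% after cold. At an unadjusted p under 0.05, 1 of the 8 stood out at thermoneutrality (7.65% of all genes) and 2 after cold (13.4% of all genes). With DESeq2's Wald test 0 of the 8 passed in either comparison as well. At thermoneutrality the exception at the unadjusted level was Lipe, at 1204 ± 107 CPM in control mice and 1036 ± 107 CPM (SD, n = 7 each) in mice labelled FAKO. The log2 difference was -0.22 ± 0.10 (SE, FDR = 0.599, 95% interval -0.42 to -0.02), and 6 of 7 mice labelled FAKO lay below the control mean. After cold the direction of the Lipe means was opposite (log2 difference 0.16 ± 0.11, FDR = 0.534).

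After cold the 2 genes at the unadjusted level were Mgll and Hilpda. Mgll was 405 ± 34.1 CPM in the 5 control mice and 486 ± 63.4 CPM in the 7 mice labelled FAKO, all of which lay above the control mean. Its log2 difference was 0.26 ± 0.09 (FDR = 0.204, 95% interval 0.08 to 0.45). Hilpda was 8.32 ± 1.33 CPM against 16.9 ± 16.8 CPM (log2 difference 1.03 ± 0.40, FDR = 0.256), and without mouse 27 the difference was 0.37 (FDR = 0.586). For the other 6 genes the 95% intervals after cold included 0. They ran from -0.05 to 0.39 for Pnpla2, from -0.14 to 0.28 for Abhd5, and from -0.05 to 0.95 for Pnpla3, which leaves room for a sizeable difference in the last.

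Whether the response to cold differed between genotypes was tested as the difference of both cold responses. None of the 8 passed (1.16% of all genes did), and 2 of the 8 had an unadjusted p under 0.05 (16.2% of all genes), while DESeq2's Wald test also called 0 of the 8. These were Lipe, whose fall was smaller in mice labelled FAKO (difference 0.38 ± 0.14, FDR = 0.189), and Mgll, whose rise was larger there (0.27 ± 0.12, FDR = 0.278). The median difference of the 8 was 0.25, against 0.04 over all genes. The 8 share libraries and scaling factors, so they are not separate observations. A positive difference can be a smaller fall, as for Lipe, or a larger rise, as for Mgll. G0s2 (0.04) turned to -0.11 under library size alone, to -0.01 with upper-quartile factors and to -0.08 without thermoneutral mouse 12. The median of the 8 was 0.05 under library size alone and 0.15 without thermoneutral control mouse 7, where the difference for Pnpla3 went from 0.39 to 0.06. Abhd6 had the lowest difference of the 8, at -0.18 ± 0.16 (FDR = 0.608). The cold response of Pnpla2 passed in control mice and not in mice labelled FAKO, but the difference of 0.23 ± 0.14 did not pass (FDR = 0.452, 95% interval -0.07 to 0.53). Under library size alone that difference was 0.0072, where the median of all genes was -0.15. Without cold mice 24 and 25 the cold change of Pnpla2 under the FAKO label was -0.32, against -0.34 in control mice in the main fit. Those mice were chosen after their values were seen, no control mouse was left out with them, and the changes come from different fits. The comparison therefore decides nothing about the difference between genotypes.

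**Figure D3:**
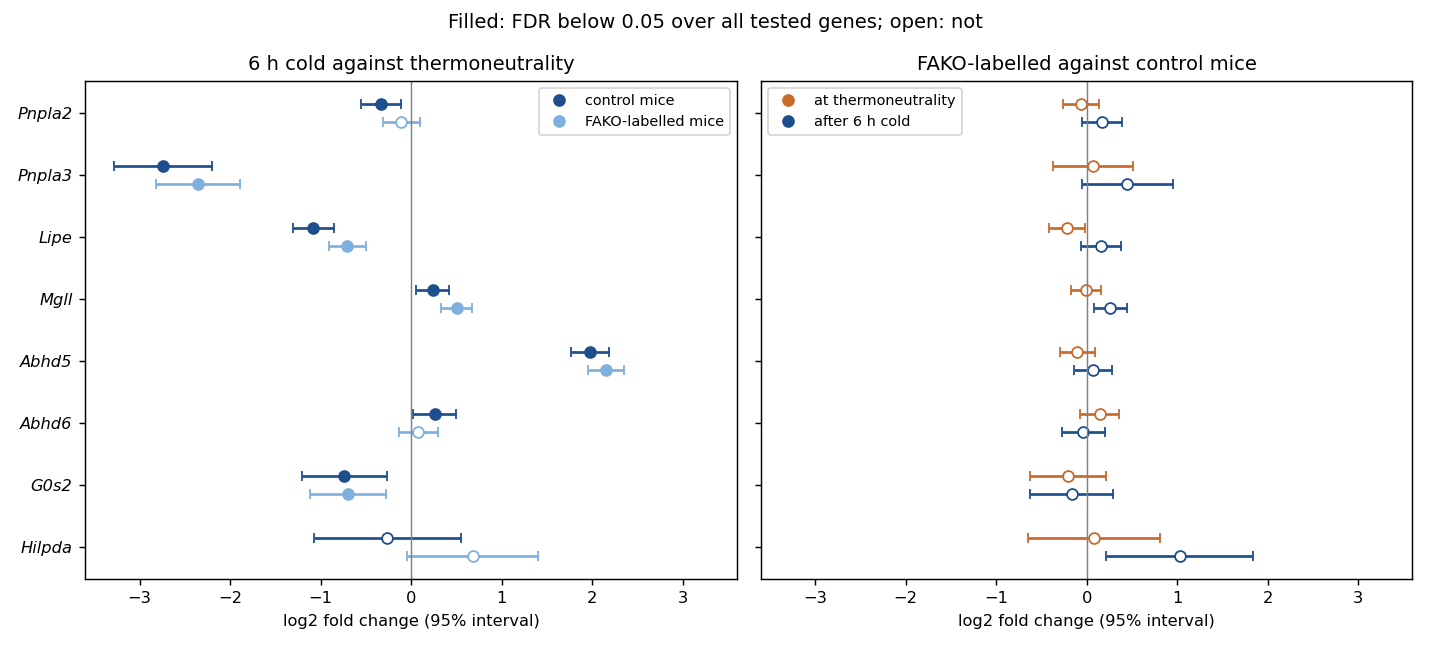
Log2 fold changes with 95% intervals from edgeR for cold against thermoneutrality in each genotype (left) and for mice labelled FAKO against control mice at each temperature (right). Filled points passed FDR 0.05 over all tested genes. Filled points appear only on the left, where Abhd5 lies near 2 and Pnpla3 below -2.

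Since Pnpla2 is governed by its coactivator and inhibitor, their reads were also set against its own within each mouse. In control mice there were 22.9 Pnpla2 reads for each Abhd5 read at the median at thermoneutrality (range 15.8 to 25.0) and 4.23 after cold (range 3.88 to 5.59). In mice labelled FAKO the medians were 23.9 and 4.26, and the cold and thermoneutral ranges were again apart. For G0s2 the median moved from 2.90 (range 2.32 to 8.64) to 4.24 (range 3.63 to 5.74) Pnpla2 reads per read in control mice, with overlap. The balance of coactivator to lipase transcript thus separated cold from thermoneutral mice, and that of inhibitor to lipase did not.

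Along the cascade, the share of Lipe in the summed level per kilobase of Pnpla2, Lipe and Mgll was lower after cold. The shares of Pnpla2 and Mgll were higher in control mice. They are parts of a whole, and the level of Pnpla2 itself was lower after cold (438 and 347 CPM per kb in control mice). The shares use the union of exons as the length. With the longest transcript, thermoneutral control mice had 504 CPM per kb for Pnpla2, 324 for Lipe and 86.1 for Mgll. In control mice Pnpla2 took 61.7% ± 2.5, Lipe 28.8% ± 1.88 and Mgll 9.56% ± 1.45 (SD, n = 7) at thermoneutrality. After cold the shares were 66.3% ± 1.67, 18.4% ± 1.48 and 15.3% ± 1.13 (SD, n = 5). The ranges for Pnpla2 (58.0% to 64.4%, then 65.1% to 69.2%), for Lipe (26.6% to 32.0%, then 16.4% to 19.9%) and for Mgll (8.45% to 12.7%, then 14.3% to 16.9%) did not overlap. In mice labelled FAKO the share of Pnpla2 was 63.3% ± 2.65 at thermoneutrality and 65.2% ± 4.53 after cold, with overlap, that of Lipe 26.5% ± 2.40 and 18.2% ± 1.40, and that of Mgll 10.2% ± 0.842 and 16.6% ± 3.74 (SD, n = 7).

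**Figure D4:**
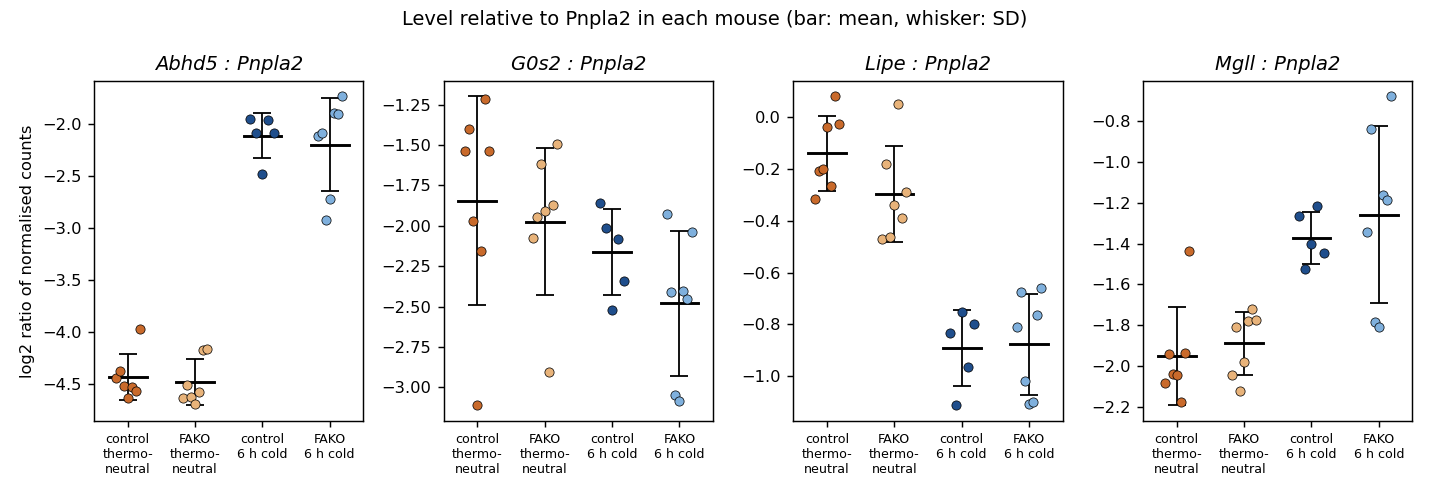
Log2 ratio of Abhd5, G0s2, Lipe and Mgll to Pnpla2 in each mouse, by group, with the mean (bar) and SD (whisker); more negative values mean more Pnpla2 reads per read of the gene. The Abhd5 panel separates cold from thermoneutral mice in both genotypes, and so does the Lipe panel in the opposite direction, whereas the G0s2 panel overlaps.

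After the group means were removed, the 28 pairs among the 8 genes had a median Pearson r of 0.07 over the 26 libraries, from -0.49 (Lipe and Abhd6) to 0.80 (Pnpla3 and Mgll). Pnpla2 and Lipe gave 0.57, and Abhd6 and G0s2 0.58. The pairs share libraries and scaling factors, so these are descriptions. Over the uncorrected log2 values the genes most like each member were Rrn3 and Sar1a for Abhd5 (r = 0.99 for both), A530016L24Rik and Alad for Pnpla3 (0.98 for both), Gprin3 and Oscp1 for Lipe (0.97 for both), and Ssu72 and Elovl5 for Mgll (0.91 for both). The others were Kat6b and Tns1 for Pnpla2 (0.87 for both), Adrb1 and Id3 for G0s2 (0.84 and 0.83), Ampd3 and Rrp1b for Hilpda (0.83 and 0.81) and Usp40 and Agpat1 for Abhd6 (0.76 and 0.74). These r include the difference between the temperature groups, and with the group means removed they were 0.71 to 0.87. The genes were picked for the highest r over these same libraries, so both sets of r are raised by that choice.

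Other genes of the pathway were counted by list, for cold in control mice, where 31.6% of all tested genes were higher and 33.4% lower. Among the 8 tested genes that handle the products, 6 rose and none fell, led by Gk, the glycerol kinase (log2 change 6.06), Acsl1, which activates fatty acids (2.02), and Fabp3, a fatty acid carrier (1.41). Of 11 droplet coat and fusion genes 5 rose and 1 fell, with Plin2 at 2.88 and Fitm2 at 1.35 above, and Plin3 at -2.26 below. Of 11 receptors that act on lipolysis 3 rose and 7 fell, led by Hcar1 (-4.18), Adora1 (-3.07) and Ptger3 (-2.52), which restrain lipolysis. The genes that rose were the natriuretic peptide clearance receptor Npr3 (1.57), the insulin receptor Insr (1.12), which also restrains lipolysis, and the thyrotropin receptor Tshr (0.64). The 23 genes of adrenergic and cAMP control were split, 8 higher and 9 lower, with the adenylyl cyclases Adcy3 at 3.31 and Adcy9 at -2.02 and the receptor Adrb1 at -1.46. In the insulin branch 2 of 11 rose (Irs2 at 1.66) and 5 fell (Pik3r1 at -1.96).

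Among the enzymes nearest to the 8, 7 of 17 other alpha/beta-hydrolase domain genes rose and 8 fell (31.6% and 33.4% of all tested genes), with Abhd15 at 1.26 and Abhd14b at -1.75. Of 4 other patatin-like phospholipases Pnpla8 rose (0.74) and 3 fell, led by Pnpla6 (-1.04). Of 11 further neutral lipid hydrolases 2 rose, Dagla (2.30) and Ddhd2 (1.88), and 5 fell, led by Ddhd1 (-1.23). Of 13 transcriptional regulators tied to lipase genes, 4 rose, with Foxo1 at 1.79 and Cebpb at 1.69. Another 3 fell, Cebpa (-2.33), Egr1 (-1.75) and Ppara (-1.17). None of the 109 tested genes of these lists passed with edgeR in either genotype comparison. At an unadjusted p under 0.05 there were 2 at thermoneutrality (7.65% of all tested genes) and 18 after cold (13.4%), and DESeq2 called 0 and 1 (Cebpa). In the difference of cold responses 1 of the 109 passed (1.16% of all tested genes), Cebpa (0.47 ± 0.12, FDR = 0.0428), which fell by 1.86 on the log2 scale in mice labelled FAKO.

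**Figure D5:**
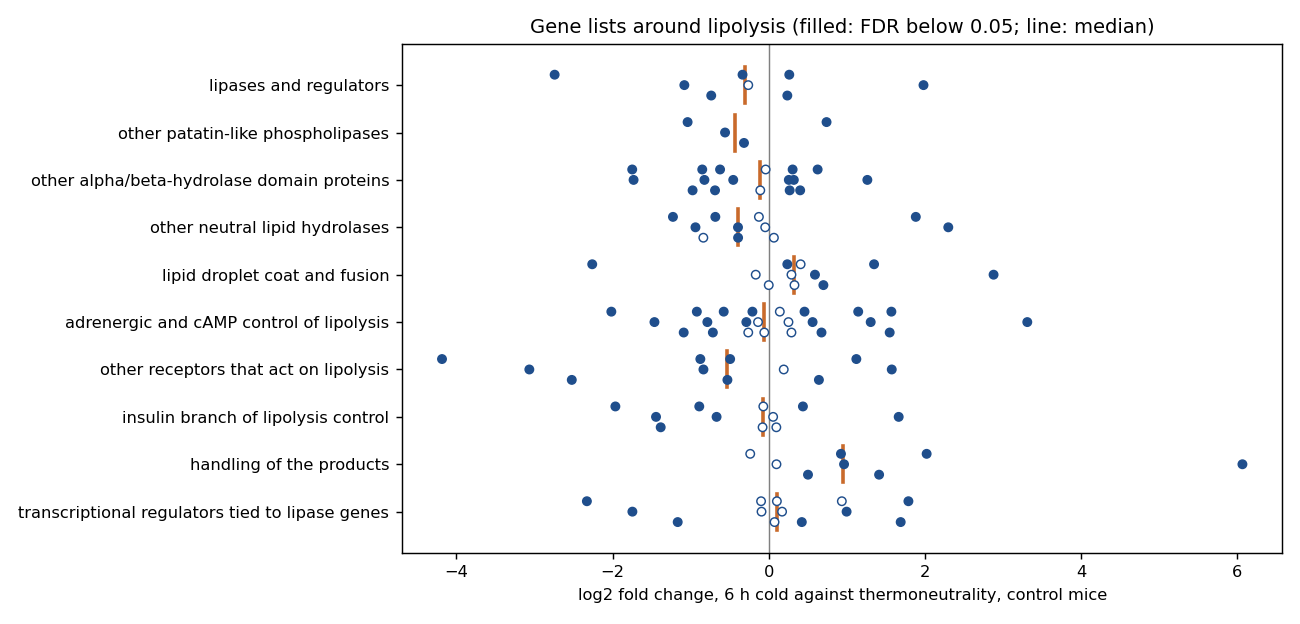
Log2 fold change by cold in control mice for the 8 lipase genes and regulators and 9 further gene lists, 1 point per tested gene, filled where FDR was under 0.05, with the list median as a vertical line. Genes that handle the products sit to the right with Gk at 6.06, and receptors that act on lipolysis reach furthest to the left with Hcar1 at -4.18.

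Markers of other cells moved with temperature as well. Summed endothelial markers had a median of 472 CPM in thermoneutral and 737 CPM in cold control mice (3 of 4 genes higher and 1 lower), and macrophage markers 157 and 191 CPM (2 higher, 2 lower of 6). Neutrophil markers went from 0.850 to 5.87 CPM (3 of 3 tested genes higher), and white adipocyte markers from 285 to 34.2 CPM, where 1 of 3 tested genes was lower, Lep (254 CPM at the thermoneutral mean, -5.61 on the log2 scale), and 2 did not pass. None of 6 skeletal muscle markers passed by edgeR or DESeq2, nor did any have an unadjusted p under 0.05 (count 0). The part of these shifts in the lipase results was not tested.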

How the data were processed

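The authors sequenced rRNA-depleted, stranded total RNA from brown adipose tissue as single-end reads, aligned them with STAR 2.5.2b to mm10, and counted reads per GENCODE M13 gene with featureCounts 1.5.2. Whether strand was used in counting is not given in the sources used here. The deposited table holds raw counts for 50686 genes in 26 libraries, of which 50376 received a symbol from GENCODE M21 and 15925 had no count. Library totals were 12705969 to 25732258 counts. The design followed the study's methods: edgeR 4.0.16 in R 4.3.3 (the authors used edgeR 3.22.0), filterByExpr, TMM factors, a model of 0 + group over all 26 libraries, the quasi-likelihood test, and Benjamini-Hochberg adjustment over all 17286 tested genes at FDR 0.05. CPM are counts scaled by library size and TMM factors, log2 values carry a prior count of 2, and levels per kilobase use the union of exons. Replicates are separate mice, and no pair of libraries of the same group agreed within sampling noise (lowest chi-square per gene 4.70 over 73 pairs). The script was tested on simulated data. Alternatives were library size alone, RLE and upper-quartile factors, other filters, the revised and robust quasi-likelihood fits, only the groups compared, DESeq2 1.42.0, and each mouse left out. Leaving out mice 24 and 25 together was chosen after seeing the data. Genes named were the 8, for each list up to 3 per direction with the largest cold change in control mice, the 2 genes most like each of the 8, and Afdn and Ucp1, and where fewer are named the rest are counted. Overlapping antisense genes and single mice were singled out after their values were seen. The genes and lists were chosen with earlier results of these data known.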

Additional observations from a re-analysis of the deposited data

Results flagged for a closer look

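Dixon's test was run on log2 CPM in 32 sets of libraries, each of the 8 genes in each group. In 5 sets a mouse lay far from the others, where chance flags about 5% of sets. The sets share mice, so they are not independent. Hilpda in cold mouse 27 labelled FAKO (53.6 CPM) was not flagged on that scale. Thermoneutral control mouse 7 was high for Pnpla3 (580 CPM) and for Mgll (439 CPM). Without it the cold change in control mice was -2.45 for Pnpla3 (FDR = 1.14e-11) and 0.28 for Mgll (FDR = 0.00354). Cold control mouse 18 was low for Abhd5 at 216 CPM, and without it the change was 2.02 (FDR = 2.89e-14). Thermoneutral control mouse 4 and thermoneutral mouse 12 labelled FAKO were low for G0s2, at 163 and 157 CPM. The cold change of G0s2 was -0.87 without mouse 4 in control mice (FDR = 0.000314) and -0.85 without mouse 12 in mice labelled FAKO (FDR = 0.000198). Summed skeletal muscle markers in these mice were 5280 CPM (mouse 7), 1368 CPM (mouse 4), 1436 CPM (mouse 12) and 1.20 CPM (mouse 18), and their part in the values was not tested.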

How the results depend on the processing

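Of 1000 refitted values for single genes of the 8, 946 kept their direction and side of the threshold, 20 lost a call, 7 gained a call, and 27 changed sign, all of values past the threshold neither before nor after. For FAKO against control at thermoneutrality, Mgll (-0.0041) became 0.13 under library size alone, 0.025 with upper-quartile factors, 0.0091 with no filter, 0.0051 with at least 10 counts and 0.0089 with only the groups compared, and library size alone turned Pnpla2 to 0.085 and Abhd5 to 0.028. For cold in mice labelled FAKO, Abhd6 became -0.21 under library size alone and -0.070 with upper-quartile factors, and the difference of cold responses of G0s2 became -0.11 and -0.0069. Without mice 24 and 25, FAKO against control after cold became -0.025 for Pnpla2 and 0.050 for Abhd6. With a mouse left out, the ranges that crossed 0 were -0.026 to 0.080 for Mgll, -0.028 to 0.40 for Pnpla3 and -0.032 to 0.18 for Hilpda (genotype at thermoneutrality), -0.096 to 0.0068 for Abhd6 (genotype after cold) and -0.085 to 0.18 for G0s2 (difference of cold responses). The number of lipase genes past the threshold was 5 to 7 in control mice and 5 to 6 in mice labelled FAKO for cold, and 0 for the genotype comparisons and for the difference of cold responses, under all alternatives run. In control mice it was 5 under library size alone, upper-quartile factors, no filter, at least 10 counts in every library and only the groups compared, where Mgll and Abhd6 no longer passed. Over all tested genes, the main count of 14 for genotype at thermoneutrality became 34 with library size alone, 9 with no filter and 48 with DESeq2, and 7 to 93 with a mouse left out. The count of 24 after cold became 5 with library size alone, 15 with no filter, 45 with at least 10 counts, 9 with only the groups compared, 197 with DESeq2 and 11 without mice 24 and 25, and 7 to 100 with a mouse left out. The count of 200 for the difference of cold responses became 27, 488 and 94 with no filter, with DESeq2 and without mice 24 and 25, and 49 to 371 with a mouse left out. The causes were not tested. With a mouse left out, cold counts over all genes were 10876 to 11299 in control mice and 11505 to 11884 in mice labelled FAKO. Library size alone moved the split of cold calls from 5454 higher and 5779 lower to 4165 and 6243 in control mice, and from 5825 and 6035 to 3223 and 8384 in mice labelled FAKO (4694 and 7369 with upper-quartile factors). The same scaling moved the split of genotype calls from 10 higher and 4 lower to 34 and 0 at thermoneutrality and from 8 and 16 to 4 and 1 after cold, and that of the difference of cold responses from 50 and 150 to 0 and 278. Upper-quartile factors gave splits of 13 and 1, 7 and 24, and 27 and 246. The difference of cold responses was not run on only the groups compared, since it uses all 4 groups. No paired analysis was possible because replicate numbers are unique to each mouse and no group shares them.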
